A study of Mus musculus with 4 samples.

Results

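The Zfp genes are mouse genes named for the zinc finger proteins they encode. They are described here in bone marrow-derived macrophages, with or without the cytokine IL-4. Members were the genes whose symbol is Zfp followed by a digit, taken from probesets with 1 symbol, and whose highest log2 signal over the 4 arrays reached 2.52. That floor is the median of all single-symbol probesets over the 4 arrays. It kept 204 of 347 Zfp genes on the array, among 10798 of 19938 genes of all kinds that reached the same floor. The members were thus chosen by their highest signal, and their levels are a description. For the same reason a gene near the floor that is high on 1 array only is lower on the others by construction. Just inside the floor lay Zfp418, with a highest signal of 2.53, and Zfp518b, Zfp532, Zfp488 and Zfp709, the last at 2.56. Just outside it lay Zfp763 at 2.51, Zfp868, Zfp36l3, Zfp961 and Zfp174 at 2.49.

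Macrophages were grown for 7 days with supernatant of L929 fibroblasts as the source of M-CSF, replated, cultured for 24 h and sorted for the macrophage protein F4/80 before RNA was taken. The 4 groups were 4get/Stat6-/- macrophages with IL-4, 4get/Stat6-/- macrophages in medium, wild-type BALB/c macrophages with IL-4 and wild-type BALB/c macrophages in medium, each on 1 array. Stat6 is the transcription factor switched on by the receptor for IL-4, and 4get is a reporter allele of the Il4 gene. Only the Stat6-/- cells carried 4get, so effects of the missing Stat6, the reporter and any other difference between these mice cannot be told apart. The IL-4 dose is written with different units in the sample protocols and in the series text, and which was meant is not settled. With 1 array per group no difference below has a replicate check, no p-value was computed, and precision is limited by the few arrays.

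Most Zfp proteins carry tandem fingers of the C2H2 kind, each of which contacts a few bases of DNA. Many of these also carry a KRAB domain, which recruits the corepressor Trim28 and, through it, the histone methyltransferase Setdb1. Such proteins are known for keeping retroelements and imprinted genes silent, and their genes lie in tandem arrays that have expanded by duplication. A small group, Zfp36 and its relatives, has fingers of the CCCH kind instead. These bind AU-rich elements in mRNAs and bring in the deadenylation machinery, and in macrophages Zfp36, also called tristetraprolin, is known for limiting Tnf and other inflammatory mRNAs.

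Signals are log2 RMA values, and each difference is one of log2 signals. The words rose, fell and changed are kept for genes where the difference was at least 1, which is 2-fold, and the higher array reached the floor. Stat6 itself had signals of 4.25 with IL-4 and 4.54 in medium in Stat6-/- cells, against 6.68 with IL-4 and 7.34 in medium in wild type. All 8 macrophage markers examined reached the floor, and their summed linear signal was 9616 and 9641 in Stat6-/- cells with IL-4 and in medium, and 6949 and 10705 in wild type with IL-4 and in medium. Markers of 9 other cell types reached at most 3.41, a value of the fibroblast gene Col1a1. The wild-type IL-4 array thus had the lowest macrophage marker sum. Each of the 8 was lower with IL-4 than in medium in wild type, but by unequal amounts. Cd68 had 10.58 with IL-4 and 10.69 in medium, and Cd14 had 6.38 with IL-4 and 9.11 in medium. The part of the lower sum in the results below was not tested. In such bulk samples, fewer cells of a type and less RNA per cell cannot be told apart.

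Signals of different probesets do not rank genes by expression, so levels are given to place each gene against the floor. The median signal of the Zfp genes was 3.26 with IL-4 and 3.33 in medium in Stat6-/- cells, and 3.13 with IL-4 and 3.41 in medium in wild type. All genes at or above the floor had medians of 4.35, 4.40, 4.39 and 4.55 on the same arrays. Of the 204 members, 87 had a mean signal under 3, 51 lay between 3 and 4, 42 between 4 and 5, 19 between 5 and 6, and 5 above 6. The floor was reached on all 4 arrays by 143 members, and 61 were under it on at least 1 array.

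The 3 CCCH genes had the highest mean signals, which is how they are ordered here and no ranking of expression. Zfp36 had 8.002 with IL-4 and 7.96 in medium in Stat6-/- cells, and 7.22 with IL-4 and 8.05 in medium in wild type. Only the wild-type IL-4 array stood low, by 0.83 against wild-type medium, which did not reach the 2-fold rule. Zfp36l2, a relative that also acts on AU-rich mRNAs, had 7.58 with IL-4 and 7.70 in medium in Stat6-/- cells, and 6.71 with IL-4 and 7.40 in medium in wild type. Here too the wild-type IL-4 array was the lowest of the 4, with a difference of -0.69 against wild-type medium. Zfp36l1, the third relative, had 7.60, 7.52, 7.52 and 7.62 on the same arrays in the same order, a range of 0.11 that was the smallest among the 24 members with a mean of at least 5. The fourth relative, Zfp36l3, was under the floor on every array. No CCCH gene changed in any of the comparisons. After the CCCH genes followed Zfp706, Zfp330, which encodes a nucleolar protein, Zfp710, the RNA-binding Zfp106 and Zfp148, which binds GC-rich DNA. The other members with the smallest ranges and a mean of at least 5 were Zfp706 at 0.13, Zfp106 at 0.23, Zfp703 at 0.25, Zfp414 at 0.27 and Zfp385a at 0.36, while the median range over all 204 members was 0.55. A second probeset of Zfp706 had a difference with IL-4 of 0.15 in wild type, against -0.07 for the one used.

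**Figure D1:**
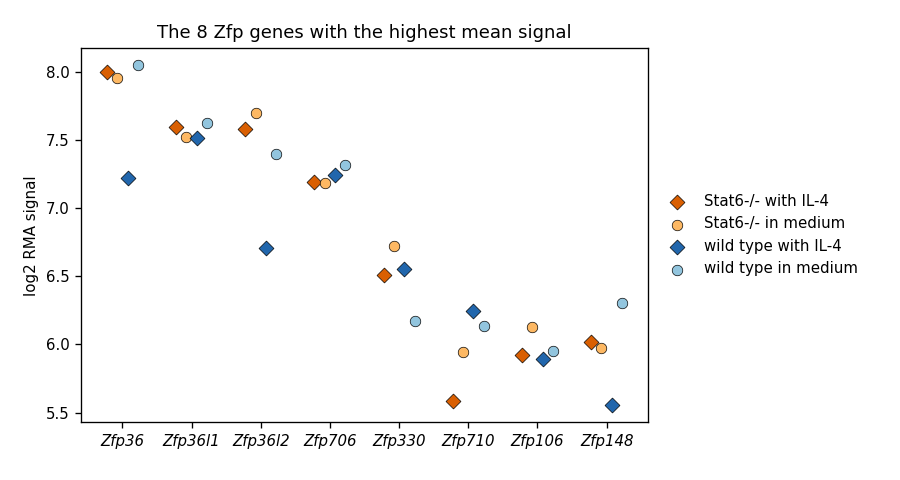
Signals (log2 RMA) of the 8 Zfp genes with the highest mean over the 4 arrays, 1 point per array and gene, with no error bars because each group is 1 array. For Zfp36 and Zfp36l2 the wild-type IL-4 point, at 7.22 and 6.71, lies below the other 3, while the 4 points of Zfp36l1 lie within 0.11.

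The question of how IL-4 acts on the cells was addressed first in wild type. Here Zfp genes were lower with IL-4 far more often than higher. Of 193 members that could be called, 13 fell and 0 rose, or 6.74% lower. Over all 10282 genes the rule called 6.78% lower and 2.96% higher, so the share of Zfp genes that fell was that of genes at large, and the count of 0 risen genes stood against 2.96%. The median difference of the Zfp genes was -0.34, against -0.11 for all genes, and 151 of the 193, or 78.2%, were below 0, against 58.6% of all genes. At a smaller rule of 1.5-fold, 60 Zfp genes were lower (31.1%, against 19.5% of all genes) and 1 was higher, against 9.19% of all genes. Applying quantile normalization again moved the all-gene median by over 0.1, to 0.02, and the Zfp median to -0.25. Under the alternative settings tried, the Zfp median minus that of all genes lay between -0.29 and -0.19. The called genes at large split into 304 higher and 697 lower as deposited, 403 and 488 after the repeated quantile step, and 419 and 486 after the trend with signal was removed.

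The shift was not limited to Zfp genes of low signal. All genes at or above the floor were divided by mean signal into 4 bins of like size. In the lowest bin the median difference was -0.33 for 88 Zfp genes and 0.08 for all genes. The second bin gave -0.33 for 54 Zfp genes and -0.10 for all genes, and the third -0.49 for 41 Zfp genes and -0.20 for all. In the top bin, with 10 Zfp genes, the medians of -0.28 and -0.20 lay closer together. In Stat6-/- cells the medians of both sets lay between -0.093 and 0.0049 in every bin.

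**Figure D2:**
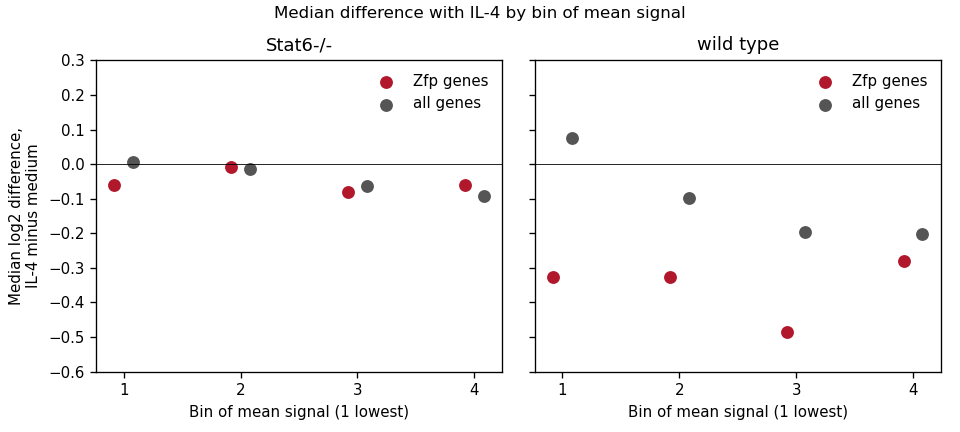
Median log2 difference, IL-4 minus medium, of Zfp genes and of all genes in 4 bins of mean signal, with Stat6-/- cells in the left panel and wild type in the right. In wild type the Zfp medians of -0.33, -0.33, -0.49 and -0.28 lie below those of all genes in each bin.

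The largest fall with IL-4 in wild type was that of Zfp825. It had 4.59 with IL-4 and 5.27 in medium in Stat6-/- cells, and 3.85 with IL-4 and 5.55 in medium in wild type. It was 3.27-fold lower with IL-4 in wild type, a difference of -1.71, and its second probeset gave -1.05. The wild-type IL-4 array was the lowest of the 4 for this gene. Zfp263, whose human counterpart is a DNA-binding repressor, had 5.48 with IL-4 and 5.90 in medium in Stat6-/- cells, and 4.67 with IL-4 and 6.01 in medium in wild type. It was 2.54-fold lower with IL-4 in wild type, again with 1 low array and the other 3 between 5.48 and 6.01. Zfp871 had 5.61 with IL-4 and 6.08 in medium in Stat6-/- cells, and 5.18 with IL-4 and 6.36 in medium in wild type, and was 2.26-fold lower with IL-4 in wild type. Zfp217, whose human counterpart is part of histone deacetylase corepressor complexes, was the 13th of these genes and was added after its values were seen. Its signals were 5.74 with IL-4 and 5.98 in medium in Stat6-/- cells, and 4.83 with IL-4 and 5.85 in medium in wild type. The difference of -1.02 lay at the edge of the rule. These 4 genes had signals well above the floor on every array, and for each the wild-type IL-4 array was the lowest.

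Zfp111 had 3.04 with IL-4 and 3.06 in medium in Stat6-/- cells, and 2.92 with IL-4 and 4.06 in medium in wild type. In this gene the wild-type medium array stood high and the other 3 lay between 2.92 and 3.06. It was 2.20-fold lower with IL-4 in wild type, and it was also lower in Stat6-/- cells than in wild type in medium, by 1.001. Zfp821 had 4.56 with IL-4 and 4.14 in medium in Stat6-/- cells, and 3.44 with IL-4 and 4.52 in medium in wild type, and was 2.11-fold lower with IL-4 in wild type. Zfp87 was 2.27-fold, Zfp369 2.09-fold and Zfp280b 2.09-fold lower with IL-4 in wild type, with all of their signals above the floor. The other 4 genes that fell were under the floor with IL-4, so that their folds are lower bounds taken against the floor. Zfp719 had 1.79 with IL-4 and 3.30 in medium in wild type, at least 1.71-fold lower. Zfp455 had 1.43 with IL-4 and 2.65 in medium, at least 1.09-fold lower, Zfp595 had 1.73 with IL-4 and 2.84 in medium, at least 1.24-fold lower, and Zfp160 had 1.74 with IL-4 and 2.82 in medium, at least 1.23-fold lower. Zfp455, Zfp595 and Zfp160 reached the floor only in wild-type medium. For them a lower value with IL-4 followed from the choice of members, though they are counted among the 13. With values raised to the floor, these 4 no longer passed the rule and 9 of the 13 did. After the repeated quantile step Zfp111, Zfp217, Zfp280b, Zfp369 and Zfp821 did not pass. Without the trend with signal Zfp217, Zfp369, Zfp821 and Zfp871 did not pass and 2 other members did.

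**Figure D3:**
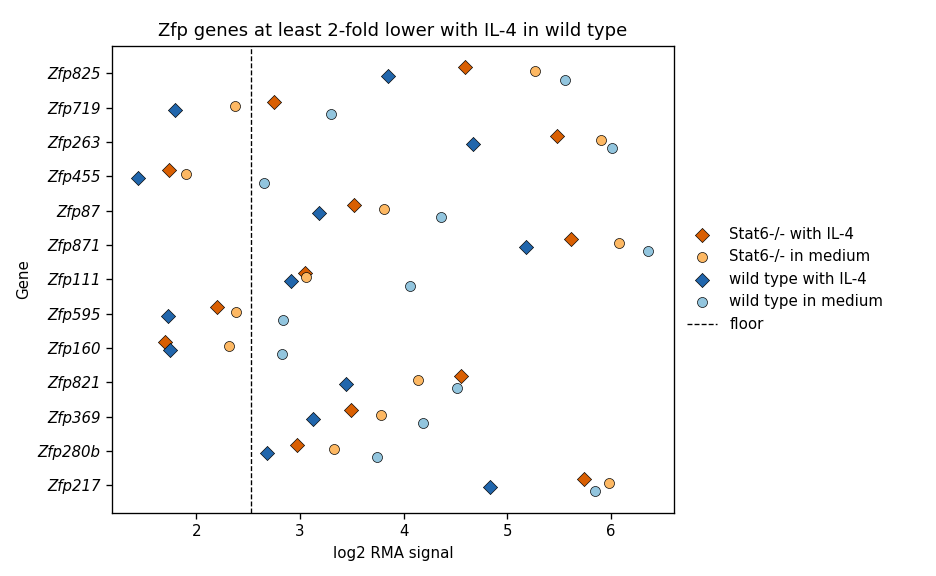
Signals (log2 RMA) of the 13 Zfp genes that were at least 2-fold lower with IL-4 in wild type, 1 point per array, with the floor of 2.52 as a dashed line. The wild-type medium point lies right of the wild-type IL-4 point by 1.71 for Zfp825 at the top and by 1.02 for Zfp217 at the bottom, and the Stat6-/- points mostly lie between them.

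The wild-type IL-4 array was the lowest of the 4 for 99 of the 204 members, or 48.5%, against 35.4% of all genes at or above the floor. The wild-type medium array was the highest for 106 members, or 52.0%, against 36.8% of all genes. Members and all genes were both kept by their highest array, so these shares reuse values of that choice and are a description. The highest value with IL-4 in wild type relative to medium, at the 1.5-fold rule, belonged to Zfp598, chosen after its values were seen. Zfp598 is a ubiquitin ligase that senses collided ribosomes. It had 3.32 with IL-4 and 3.59 in medium in Stat6-/- cells, and 3.84 with IL-4 and 3.23 in medium in wild type, a difference of -0.27 in Stat6-/- cells and 0.61 in wild type.

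In Stat6-/- macrophages no Zfp gene passed the rule. Of 190 members that could be called, 0 rose and 0 fell, where the rule called 0.24% of all genes higher and 0.115% lower. The median difference with IL-4 was -0.04 for the Zfp genes and -0.05 for all genes. The share below 0 was 57.4% of the Zfp genes and 56.5% of all genes. By these measures the Zfp genes lay where genes at large lay. The range of the Zfp differences was -0.99 to 0.67 in Stat6-/- cells, against -1.71 to 0.61 in wild type. The Stat6-/- ends were Zfp709, which reached the floor only in Stat6-/- medium, and Zfp366, which did so only in Stat6-/- cells with IL-4. Their directions thus followed from the choice of members. At the 1.5-fold rule 2 Zfp genes (1.05%) were higher and 9 (4.74%) lower with IL-4 in Stat6-/- cells. Among all genes 3.01% were higher and 2.91% lower.

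**Figure D4:**
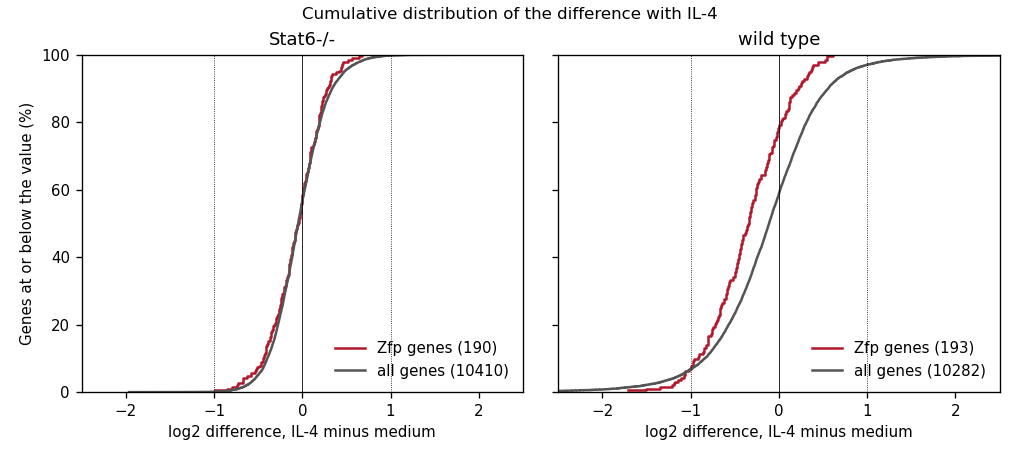
Cumulative share (%) of Zfp genes and of all genes by their log2 difference, IL-4 minus medium, with Stat6-/- cells in the left panel and wild type in the right. The curves nearly overlie each other in Stat6-/- cells, with medians of -0.04 and -0.05, and in wild type the Zfp curve is shifted to the left, with a median of -0.34 against -0.11.

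The IL-4 effects in both genotypes were set side by side for each gene. They share no array. Of the 204 members, 94 were below 0 in both genotypes, 64 were above 0 in Stat6-/- cells and below 0 in wild type, 24 the opposite and 21 above 0 in both, and 1 was at 0 in Stat6-/- cells. The same split was not counted over all genes, so it is a description. Of members that could be called, 78.2% were below 0 in wild type and 57.4% in Stat6-/- cells, against 58.6% and 56.5% of all genes. Across genes the Pearson correlation of both effects was 0.24 and the Spearman correlation 0.25, against 0.27 and 0.29 over all genes. Genes are not independent replicates, and each effect also carries the error of its own 2 arrays.

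The effect in Stat6-/- cells minus that in wild type passed 1 for 11 members and was below -1 for 0, where 5.77% of all genes lay above 1 and 3.2% below -1. The median of this difference was 0.29 for the Zfp genes and 0.07 for all genes. Among all genes 623 were above and 346 below, against 461 and 420 after the repeated quantile step. At the 1.5-fold size 47 Zfp genes (23.0%) were above and 7 (3.43%) below, where 16.6% of all genes were above and 10% below. Zfp719 had the largest value, 1.88, with 2.75 with IL-4 and 2.37 in medium in Stat6-/- cells, and 1.79 with IL-4 and 3.30 in medium in wild type. The arrays thus ran in opposite order in both genotypes, but 2 of the 4 values were under the floor. Zfp821 followed with 1.49, from an effect of 0.42 in Stat6-/- cells and -1.08 in wild type, with every array above the floor. Zfp626 reached 1.21, from 0.22 in Stat6-/- cells and -0.99 in wild type, also with every array above the floor. The others were Zfp943, Zfp935, Zfp781, Zfp316, Zfp111, Zfp945, Zfp455 and Zfp825, with values between 1.46 and 1.03. With values raised to the floor, 5 members passed, namely Zfp821, Zfp935, Zfp626, Zfp111 and Zfp825. Zfp111 and Zfp825 did not pass after the repeated quantile step, nor Zfp825 without the trend.

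**Figure D5:**
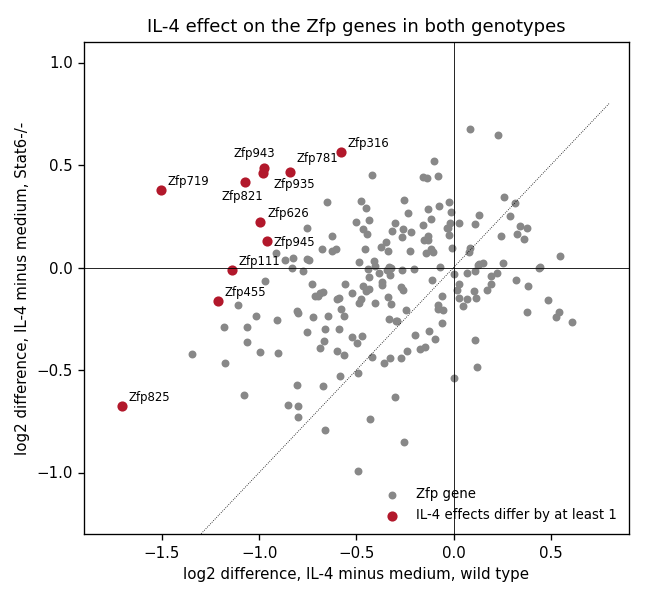
The log2 difference, IL-4 minus medium, of each of the 204 Zfp genes in Stat6-/- cells (vertical axis) and in wild type (horizontal axis), with lines at 0 and a dotted line of equal effects. The 11 genes whose effects differ by at least 1 all lie above the dotted line, from Zfp719 with 1.88 to Zfp825 with 1.03.

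The genotypes were then compared within each culture. These comparisons share arrays with those above, so their values are given for each gene and are no separate evidence. In medium 1 member rose and 2 fell of 199, where the rule called 0.301% of all genes higher and 1.15% lower in Stat6-/- cells. The median difference was -0.15 for the Zfp genes and -0.11 for all genes. The genes called at large split into 31 higher and 118 lower as deposited, 42 and 71 after the repeated quantile step and 38 and 79 after the trend with signal was removed. At the 1.5-fold rule 4 Zfp genes (2.01%) were higher and 23 (11.6%) lower in Stat6-/- cells in medium. Among all genes 2.98% were higher and 8.12% lower. Zfp658, whose human counterpart regulates genes in response to zinc, rose. It had 3.16 in Stat6-/- cells and 1.99 in wild type in medium, at least 1.55-fold higher, and 2.997 in Stat6-/- cells and 2.47 in wild type with IL-4. Both wild-type arrays of this gene were under the floor. It was a member only through the Stat6-/- arrays, so their higher values followed from the choice of members. Zfp781 fell, with 1.75 in Stat6-/- cells and 3.06 in wild type in medium, at least 1.45-fold lower. With IL-4 its signal was 2.21 in both genotypes, under the floor. Zfp781 reached the floor only in wild-type medium, so its lower value in Stat6-/- cells followed from the choice of members. Zfp111, described above, was the other gene that fell, and it did not pass after the repeated quantile step or without the trend. Zfp658 and Zfp781 did not pass with values raised to the floor.

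With IL-4, 1 of 182 members rose and 0 fell, where the rule called 4.01% of all genes higher and 4.83% lower in Stat6-/- cells. The gene was Zfp821, which was 2.16-fold higher, with 4.56 in Stat6-/- cells and 3.44 in wild type. The median was 0.13 for the Zfp genes and -0.0001 for all genes, and 117 Zfp genes, or 64.3%, were above 0, against 49.6% of all genes. Zfp36 and Zfp36l2 differed by 0.78 and 0.87, under the rule. At the 1.5-fold rule 17 Zfp genes (9.34%) were higher and 5 (2.75%) lower in Stat6-/- cells with IL-4. Among all genes 10.9% were higher and 12.4% lower.

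Members with a known role were grouped after the table had been read, so the groups are a description. Of 8 genes for ribosome and RNA handling, all members, 0 changed with IL-4 in wild type and the median difference was -0.17. Among all genes the rule called 6.78% lower and 2.96% higher there. In this group Zfp638, which takes part in splicing, had 4.58 with IL-4 and 4.79 in medium in Stat6-/- cells, and 4.56 with IL-4 and 5.37 in medium in wild type. The wild-type medium array was the high one here, and the difference of -0.81 was under the rule. Among the DNA-binding regulators with a known target or complex, 6 reached the floor and their median was -0.41. Of these, 1 (16.7%, against 6.78% of all genes) fell with IL-4 in wild type, Zfp217. Zfp148 had 6.01 with IL-4 and 5.97 in medium in Stat6-/- cells, and 5.55 with IL-4 and 6.31 in medium in wild type. Zfp384, which binds adenine-rich DNA, had 6.09 with IL-4 and 5.80 in medium in Stat6-/- cells, and 5.66 with IL-4 and 6.11 in medium in wild type. Zfp410, the activator of Chd4, hardly varied, with signals of 4.38 to 4.47 over the 4 arrays.

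Among regulators known from immune or fat cells, Zfp318, which B cells need for IgD, had 4.01 with IL-4 and 3.81 in medium in Stat6-/- cells, and 4.34 with IL-4 and 4.37 in medium in wild type. Zfp366, a dendritic cell regulator, reached the floor only in Stat6-/- cells with IL-4, at 2.96, against 2.29 in Stat6-/- cells in medium. Zfp467, which promotes fat cell formation, had 2.65 with IL-4 and 3.51 in medium in Stat6-/- cells, a difference of -0.85, and 3.04 with IL-4 and 3.30 in medium in wild type. None of these 3 passed the rule in any comparison. Of the genes known for silencing retroelements or imprinted genes, 7 were measured and 3 reached the floor. Zfp809, which starts the silencing of retroviruses, had 4.48 with IL-4 and 4.59 in medium in Stat6-/- cells, and 4.33 with IL-4 and 4.76 in medium in wild type. Zfp445, which protects imprints, had 5.25 with IL-4 and 5.55 in medium in Stat6-/- cells, and 5.04 with IL-4 and 5.63 in medium in wild type. Zfp568 stayed near the floor, at 2.38 to 2.63. Zfp57 and Zfp42, known from early embryos and stem cells, were under the floor on every array.

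The partners of these proteins were taken from lists. Of the KRAB corepressor and silencing machinery, 21 genes could be called with IL-4 in wild type, of which 1 (4.76%) fell and 0 rose, against 6.78% lower and 2.96% higher among all genes, and the median of the list was -0.39 against -0.11. The gene that fell was Tasor, a subunit of the HUSH silencing complex, with 4.40 with IL-4 and 5.99 in medium in wild type, a difference of -1.59. Trim28, the corepressor that KRAB domains bind, had 6.28 with IL-4 and 6.26 in medium in Stat6-/- cells, and 6.78 with IL-4 and 6.37 in medium in wild type. Its difference with IL-4 in wild type was 0.41 and that of Setdb1 was -0.46, both under the rule. In Stat6-/- cells 0 of 22 changed with IL-4, where the rule called 0.24% of all genes higher and 0.115% lower. Between genotypes in medium, 1 of 22 (4.55%, against 1.15% of all genes) was lower in Stat6-/- cells, Smarcad1 by 1.30. With IL-4, 2 of 21 (9.52%, against 4.83%) were lower in Stat6-/- cells, Cbx5 by 1.13 and Dnmt3a by 1.34. Of the 29 genes of deadenylation and mRNA decay, with which the CCCH proteins work, 0 rose and 1 (3.45%, against 6.78% of all genes) fell with IL-4 in wild type, the helicase gene Ddx6 at -1.15. Their median was -0.29. Of 11 other regulators of AU-rich mRNAs, 0 rose and 1 (9.09%, against 6.78%) fell, the Roquin gene Rc3h1 at -1.13. Their median was -0.41. Of 11 mRNAs known as Zfp36 targets, 3 (27.3%, against 2.96% of all genes) rose with IL-4 in wild type, Myc by 2.39, Ptgs2 by 1.62 and Cxcl3 by 1.17. Of the same targets 2 (18.2%, against 6.78%) fell, with differences of -2.60 for Il1b and -1.64 for Vegfa. The median of the target list was 0.13. In Stat6-/- cells 0 of these 11 changed with IL-4, where the rule called 0.24% of all genes higher and 0.115% lower.

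Other zinc finger families named by another prefix were set beside the Zfp genes. With IL-4 in wild type the rule called 2.96% of all genes higher and 6.78% lower. Of 36 Zbtb genes, whose proteins join fingers to a BTB domain, 0 rose and 2 (5.56%) fell, and their median was -0.27. The 13 Zscan and Zkscan genes had 0 called and a median of -0.34, the same as that of the Zfp genes. The 13 Zc3h genes, of the CCCH kind, had 0 called and a median of -0.15. The medians of these 3 families in Stat6-/- cells were -0.02, -0.07 and -0.22. No difference between the families was tested.

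The Zfp genes lie together in the genome, which the choice of members did not use. Of the 204, 55 (27.0%) were on chromosome 7, which held 8.08% of all genes at or above the floor, and 20 (9.80%) were on chromosome 13, which held 3.62%. On chromosome 13 the median difference with IL-4 in wild type was -0.63 over these 20 genes, against -0.21 for all genes of that chromosome. Of the 20, 18 were below 0 and 5 fell, namely Zfp825, Zfp87, Zfp369, Zfp455 and Zfp595. Zfp455 and Zfp595 reached the floor only in wild-type medium, so for them a lower value with IL-4 followed from the choice of members. With values raised to the floor, their differences were -0.13 and -0.31. Both are also in the median of -0.63. The rule called 11.02% of all genes of that chromosome lower. On chromosome 7 the median was -0.26 over 55 genes, against -0.052 for all genes there. Of the 55, 2 fell, Zfp719 and Zfp111, where the rule called 5.25% of all genes of that chromosome lower. Runs of at least 4 members with at most 2 other genes between neighbours numbered 8 and held 44 members. The median was -0.33 in these runs and -0.33 outside them, so both medians were the same to this precision. Single runs lay apart from these medians in both directions. In wild type the run of 5 genes from Zfp768 to Zfp689 on chromosome 7 had a median of 0.0023, with 2 below 0. The run of 5 from Zfp579 to Zfp580 on chromosome 7 had -0.11, with 3 below 0. The run of 6 from Zfp398 to Zfp467 on chromosome 6 had -0.18, with 5 below 0. In the run of 6 genes from Zfp459 to Zfp738 on chromosome 13 all 6 were below 0 in Stat6-/- cells, with a median of -0.34, and all 6 were below 0 in wild type, with a median of -0.74. Zfp459, in this run, also reached the floor only in wild-type medium. Its signals in Stat6-/- cells, both under the floor, were 1.84 with IL-4 and 1.84 in medium, a difference of -0.0009. The run of 5 genes from Zfp759 to Zfp595 on the same chromosome had a median of -0.17 in Stat6-/- cells and -0.65 in wild type. That run holds Zfp455 and Zfp595. In the run of 4 from Zfp60 to Zfp780b on chromosome 7, all 4 were above 0 in Stat6-/- cells, with a median of 0.21, and all 4 below 0 in wild type, with a median of -0.55. Zfp60 and Zfp780b were under the floor in Stat6-/- cells in medium, at 2.43 and 2.49. A second probeset of Zfp60, under the floor on every array, gave -0.16 in Stat6-/- cells. Neighbours in such arrays are often duplicates of each other, such as Zfp729a and Zfp729b, so probes may not tell them apart, and 40 probesets that named a Zfp gene beside other symbols were left out.

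Promoters were read from a RefSeq table of 300-base windows, 250 before and 50 after the start, on build GRCm38.p6. It held 209 windows of 170 members. The word TTCNNNNGAA, the spacing that Stat6 prefers, was searched on both strands and was in 6.22% of the member windows, in 5.33% of the windows of genes at or above the floor and in 6.95% of all windows. It was in 0 of the 16 windows of members that fell with IL-4 in wild type. Members with a match had a median difference with IL-4 in wild type of -0.33, and those with a window and no match had -0.34.

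A second word was searched after the windows had been read. ACTACANTTCCC, read as GGGAANTGTAGT on the other strand, is a part of the longer site known for ZNF143, the human counterpart of Zfp143. It was in 27 of 209 member windows, or 12.9%, against 2.04% of the windows of genes at or above the floor and 0.947% of all windows. Zfp143 itself was not measured by a probeset of 1 symbol. The stretches around the word in 7 members of chromosome 13 are shown because they are much alike in the bases before it. They are given with 20 bases on either side and the word in capitals.
Zfp457, chr13:67306460-67306511, - strand: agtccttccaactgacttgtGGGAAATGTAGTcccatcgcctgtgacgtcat
Zfp458, chr13:67269141-67269192, - strand: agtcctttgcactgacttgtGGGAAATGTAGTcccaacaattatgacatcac
Zfp595, chr13:67332580-67332631, - strand: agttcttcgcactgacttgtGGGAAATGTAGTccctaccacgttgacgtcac
Zfp729a, chr13:67637784-67637835, - strand: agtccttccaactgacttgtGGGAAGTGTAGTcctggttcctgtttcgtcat
Zfp738, chr13:67683537-67683588, - strand: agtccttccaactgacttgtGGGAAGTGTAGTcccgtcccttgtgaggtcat
Zfp759, chr13:67128156-67128207, + strand: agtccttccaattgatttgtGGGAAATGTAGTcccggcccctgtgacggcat
Zfp874b, chr13:67484257-67484308, - strand: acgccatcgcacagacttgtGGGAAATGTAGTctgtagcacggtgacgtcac
Most of these stretches have gacttgt just before the capitals, and the bases before that are alike but not the same in all. In 10 members, 8 of them on chromosome 7 and 1 each on chromosomes 2 and 11, the word is preceded by ttct instead, of which 5 are shown.
Zfp109, chr7:24237692-24237743, - strand: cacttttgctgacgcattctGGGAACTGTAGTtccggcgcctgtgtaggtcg
Zfp111, chr7:24208182-24208233, - strand: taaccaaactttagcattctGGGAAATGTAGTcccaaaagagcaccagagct
Zfp790, chr7:29815948-29815999, + strand: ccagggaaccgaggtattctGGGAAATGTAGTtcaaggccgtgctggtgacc
Zfp84, chr7:29768509-29768560, + strand: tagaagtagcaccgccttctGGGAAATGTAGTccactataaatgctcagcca
Zfp93, chr7:24270326-24270377, + strand: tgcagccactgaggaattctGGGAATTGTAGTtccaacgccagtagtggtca
The 27 members with the word had a median difference with IL-4 of -0.09 in Stat6-/- cells and -0.33 in wild type. The 143 members with a window and without the word had -0.35 in wild type. Among the 27, 22 were below 0 in wild type, and their differences ran from -1.14 for Zfp111 to 0.52 for Zfp661. A match is a description of these letters and shows no binding.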

How the data were processed

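Total RNA of sorted macrophages was measured on 4 whole-transcript arrays, 1 per group. The deposited values are log2 signals per probeset, which the authors made with RMA in Affymetrix Expression Console, per the submitters' processing notes. Its version, its settings and the build of the array are not given. The annotation of the platform gave 1 symbol to 21789 of 35557 probesets, several to 1621 and none to 12147. Each of 19938 genes was represented by its probeset with the highest mean, and 9 members had more than 1. All 204 member symbols were found in a RefSeq gene table of GRCm38.p6. Differences of log2 signals, counts and medians were computed with Python 3.11.15, numpy 2.4.6, pandas 2.3.3 and statsmodels 0.14.6. All 4 value columns were mapped to a sample. The script was tested on simulated data.

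With 1 array per group no test was possible, so genes were called by size. In every comparison up to 12 Zfp genes with the largest increase and 12 with the largest decrease past the rule were named, with Stat6, the CCCH genes, the 8 highest members, 6 with the smallest range, 5 on either side of the floor and up to 4 changed genes per list. Role groups, lists and members were chosen with earlier results of these data known. Genes named only for their role, chromosome or promoter were chosen after their values were seen. Alternatives were repeated quantile normalization, a shift to one median, removal of the trend with signal by lowess (fraction 0.3), 3 other floors, values raised to the floor, the mean of a gene's probesets and a 1.5-fold rule.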

Additional observations from a re-analysis of the deposited data

Results flagged for a closer look

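In 8 Zfp genes the IL-4 effect ran in opposite directions in both genotypes, above 0 in Stat6-/- cells and below 0 in wild type, and the effects differed by at least 1. The difference between the effects, Stat6-/- minus wild type, was 1.88 for Zfp719, 1.49 for Zfp821, 1.46 for Zfp943, 1.44 for Zfp935, 1.31 for Zfp781, 1.21 for Zfp626, 1.14 for Zfp316 and 1.09 for Zfp945. Each effect rests on 1 array per culture and the difference was not tested. How many of all genes ran in opposite directions in this way was not counted. In Zfp821 and Zfp626 all 4 arrays were above the floor, and the other 6 had at least 1 array under it. Zfp943 had 2.38 with IL-4 and 1.89 in medium in Stat6-/- cells, and 1.59 with IL-4 and 2.56 in medium in wild type, so that only wild-type medium reached the floor. The same held for Zfp781, with 2.21 with IL-4 and 1.75 in medium in Stat6-/- cells, and 2.21 with IL-4 and 3.06 in medium in wild type. With values raised to the floor the difference between the effects was 0.999 for Zfp719, 0.038 for Zfp943, 1.31 for Zfp935, 0.54 for Zfp781, 0.39 for Zfp316 and 0.72 for Zfp945. Zfp935 had 2.95 with IL-4 and 2.48 in medium in Stat6-/- cells, and 2.43 with IL-4 and 3.41 in medium in wild type. Zfp316 had 2.59 with IL-4 and 2.02 in medium in Stat6-/- cells, and 2.27 with IL-4 and 2.85 in medium in wild type. In 11 members in all (5.39%, against 5.77% of all genes) the difference was at least 1, and in 0 was it -1 or lower, against 3.2%. The other 3, Zfp111, Zfp455 and Zfp825, were below 0 in both genotypes.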

How the results depend on the processing

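No paired analysis was possible because each group held 1 array. Medians and counts are called moved where they changed by over 1.5 times. Under the alternatives with the 2-fold rule, 0 Zfp genes rose with IL-4 in wild type, and the count that fell was 13 as deposited, 8 after repeated quantile normalization, 11 after removal of the trend with signal, 10 with the floor on the mean, 9 with values raised to the floor and 4 with the floor at the 75th percentile. The 75th percentile floor left 41 to 51 Zfp genes, by comparison. It gave 0 higher and 0 lower between genotypes in medium, 0 higher with IL-4, 1 member above 1 for the difference between both IL-4 effects, as well as medians of -0.080 for IL-4 in Stat6-/- cells and 0.23 for Stat6-/- against wild type with IL-4. The repeated quantile step gave 1 lower between genotypes in medium, a median there of -0.031, and -0.019 for IL-4 in Stat6-/- cells. Removing the trend gave 1 lower with IL-4 in Stat6-/- cells, a median there of -0.024, and -0.068 between genotypes in medium. The shift to one median gave 0.078 between genotypes with IL-4. With no floor, the medians were -0.20 for IL-4 in wild type, -0.042 and 0.083 between genotypes in medium and with IL-4, and 0.14 for the difference of effects. The floor on the mean gave 1 lower in medium and 7 above 1 for the difference of effects, and raising values to the floor gave 0 higher and 1 lower in medium and 5 above 1. The 1.5-fold rule gave 2 higher and 9 lower with IL-4 in Stat6-/- cells, 1 and 60 in wild type, 4 and 23 between genotypes in medium, 17 and 5 with IL-4, and 47 and 7 for the difference of effects. The other 96 values kept their direction within 1.5 times. Signs turned for Zfp36 between genotypes in medium (0.015 after the quantile step, 0.052 without the trend), for Zfp36l1 there (0.022 and 0.048) and for Zfp36l1 with IL-4 in wild type (0.013 without the trend). Among the values of single genes, 26 no longer passed the rule and 184 did not change side. The causes were not tested.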
